A study of Mus musculus with 20 samples.

Results

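Macrophages and related myeloid cells of the mouse uterus were followed here through 10 marker genes, taken by gene symbol from the 45777 genes of the expression table: Csf1, Csf1r, Adgre1, Cd68, Cx3cr1, Mrc1, Cd163, Arg1, Itgax and Ly6c2. All 10 were listed above 0 TPM (a level per transcript length, scaled so that every library has the same total) in all 20 libraries, so all 10 were among the 18706 genes tested. RNA was sequenced from the uterus of 20 B6D2F1 females aged 8 to 12 weeks, wild type by label, collected at 18:00 on day 3.5 of pregnancy, before embryos attach. Day 0.5 was the morning of the vaginal plug. Each of 4 groups held 5 mice with 1 library per mouse.

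Control mice were pregnant and received no RU486. IF (implantation failure) mice received RU486 (mifepristone), an antagonist of the progesterone and glucocorticoid receptors, by subcutaneous injection on the morning of day 3.5. PBMC mice received the same RU486 and, on day 1.5, peripheral blood mononuclear cells of non-pregnant mice into the uterine horns. In PBMC-hCG mice these cells had been cultured with human chorionic gonadotropin, and in PBMC mice they had been cultured without it. Control and IF mice had no intrauterine injection, so an effect of the injection and one of the cells cannot be told apart, and RNA of donor cells is not separated from that of the host. Mice given medium alone were not analysed here. Sequencing depth is unknown, since TPM totals lay between 999989 and 999999, and no counting interval can be given.

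Macrophages are the main phagocytes of the uterine wall, and most of them depend on signals through CSF1R, the receptor tyrosine kinase encoded by Csf1r, whose ligand CSF1 rises in the uterus under ovarian hormones. F4/80 (Adgre1) and the lysosomal glycoprotein CD68 mark macrophages broadly, the mannose receptor (Mrc1) and the haemoglobin scavenger receptor CD163 mark resident or alternatively activated ones, and arginase 1 (Arg1) splits arginine into ornithine and urea. CX3CR1 is the fractalkine receptor of monocytes and some macrophages, CD11c (Itgax) is an integrin of dendritic cells and some macrophages and NK cells, and Ly6C is a surface protein of inflammatory monocytes.

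The genes covered a wide range of levels. On the TPM scale the highest means over the 20 mice were those of Csf1r (58.6), Cd68 (55.4), Mrc1 (36.9) and Adgre1 (36.1). Csf1r was above 85.6% of the tested genes. Csf1 (19.5 TPM), Ly6c2 (16.6), Cx3cr1 (14.8) and Itgax (11.7) lay in the middle. Arg1 (1.95 TPM) and Cd163 (1.19) were near the bottom, above 22.4% and 17.3% of the tested genes. The spread between mice of a group differed as much. The within-group coefficient of variation was 9.14% for Adgre1 and 9.62% for Cd68, and 31.1% for Itgax.

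Ly6c2 needs a caution before its values are read. The gene lies on chromosome 15 (75108161 to 75112066, GRCm38) near Ly6c1, which endothelial cells express, and the coding sequences of the transcripts are alike over most of their length. Of 393 coding bases, 9 differ (97.7% identity), and the longest identical run is 188 bases. The first 120 coding bases of each, read from the reference transcripts of GRCm38 on the minus strand with exons joined, hold 6 of the 9 differences, shown in capitals, and are given because reads outside them could be shared between the genes.
Ly6c1: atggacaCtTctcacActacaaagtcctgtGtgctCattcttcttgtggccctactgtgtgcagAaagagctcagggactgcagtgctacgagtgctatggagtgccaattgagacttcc
Ly6c2: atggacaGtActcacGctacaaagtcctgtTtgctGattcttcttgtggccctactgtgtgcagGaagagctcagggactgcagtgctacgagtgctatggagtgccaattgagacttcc
Ly6c1 was far more abundant, with a mean of 227.7 TPM against 16.6 TPM for Ly6c2, so a small share of reads assigned to the wrong gene would move Ly6c2 by much more than Ly6c1. The values of Ly6c2 are therefore uncertain in all groups.

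**Figure D1:**
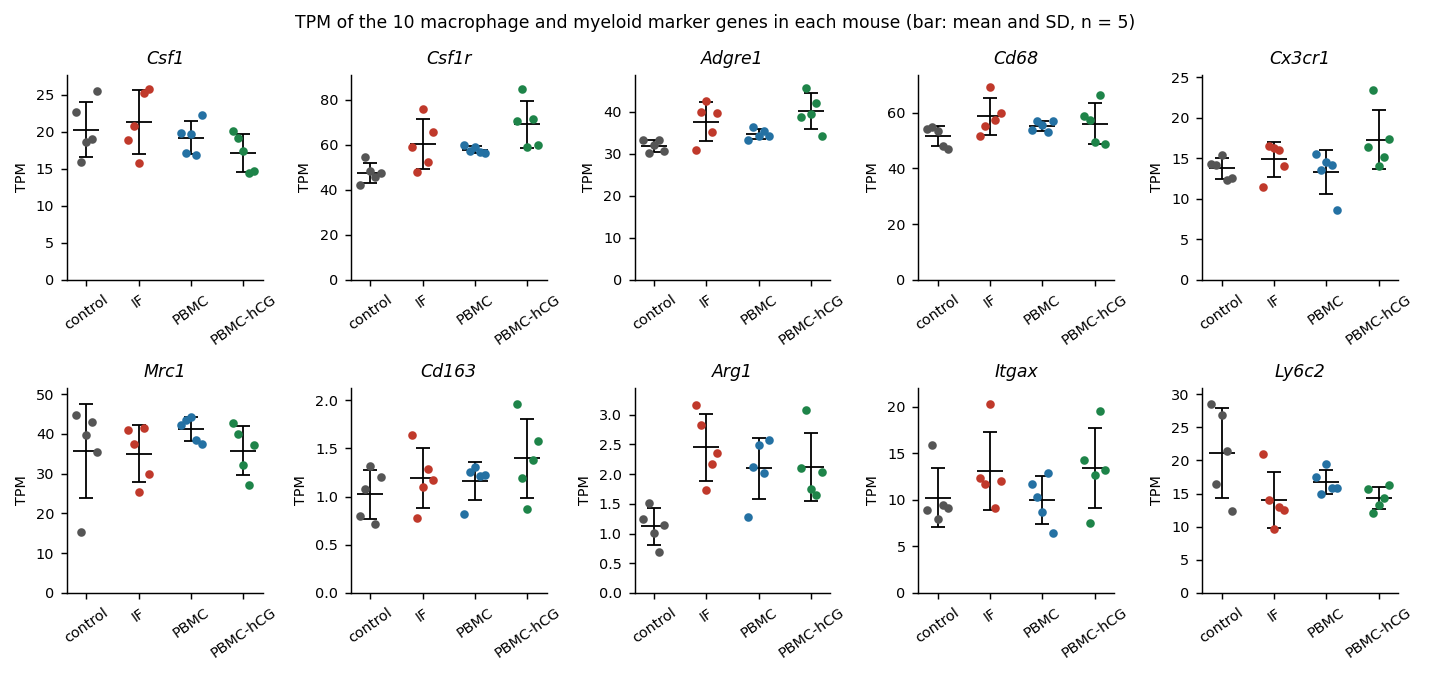
TPM of each of the 10 genes (vertical axes, starting at 0) in each of the 20 mice, by group (horizontal axes), with the mean and SD of 5 mice. Arg1 was at or under 1.52 TPM in every control mouse and at or above 1.73 TPM in every IF mouse, Csf1r of every PBMC-hCG mouse lay above every control mouse, and 1 control mouse had Mrc1 at 15.5 TPM.

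Arg1, Csf1r and Adgre1 were higher in IF than in control mice, Arg1 by 2.11-fold and the other genes by 1.25-fold and 1.17-fold. These were the 3 of 10 genes called by limma at an adjusted p under 0.05, all as higher, while 21.9% of all tested genes were called in either direction and 13.4% as higher. None of the 10 passed as lower, and Ly6c2 alone was lower at an unadjusted p under 0.05, as were 14.2% of all tested genes. The median log2 fold change of the 10 genes was 0.19, beside 0.02 for all tested genes. In RNA of whole uterus, fewer cells of a type and less RNA per cell cannot be told apart. The comparison asks what RU486 does to uterine expression at this time.

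Arg1 (chromosome 10, 24915207 to 24927470) was at 1.24, 1.52, 1.01, 0.684 and 1.14 TPM in the 5 control mice. In the IF mice it was at 3.16, 2.83, 1.73, 2.17 and 2.35 TPM. Every IF mouse was above every control mouse, as in 8.55% of all tested genes, and the mean was 1.12 ± 0.307 TPM (SD, n = 5) in the control and 2.45 ± 0.563 TPM (SD, n = 5) in the IF group. On the scale of log2(TPM + 0.1) this was a log2 fold change of 1.07 (SE 0.22, adjusted p = 0.00199 in limma). Arg1 alone of the 10 also met the study's criterion of a fold change of at least 2 with an unadjusted p-value under 0.05, which 4.03% of all tested genes met. Its change fell short of 2-fold without control mouse 4 (log2 fold change 0.93), without IF mouse 1 (0.98) and with a pseudocount of 1 (0.70). The call by adjusted p held when each of the 20 mice was left out in turn (adjusted p up to 0.00693) and in 13 of 13 other settings of the fit (adjusted p up to 0.011).

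Csf1r was at 42.2, 54.4, 48.4, 45.4 and 47.4 TPM in the control mice. In the IF mice it was at 58.8, 47.7, 75.8, 52.4 and 65.8 TPM. IF mice 2 and 4 fell within the range of the controls and the other 3 lay above it. This gave a log2 fold change of 0.32 (SE 0.11, adjusted p = 0.0436 in limma).

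Adgre1 (chromosome 17, 57358581 to 57483529) had the narrowest spread of the 10 genes. It was at 33.3, 30.2, 32.0, 33.4 and 30.6 TPM in the control mice and at 31.0, 40.1, 42.6, 35.2 and 39.7 TPM in the IF mice. IF mouse 1 lay within the control range and the other 4 above it. Its log2 fold change was 0.23 (SE 0.08, adjusted p = 0.0459 in limma).

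The calls of Csf1r and Adgre1 between IF and control mice were close to the threshold. With 1 of the 20 mice left out, Csf1r was called in 7 of 20 fits and Adgre1 in 5 of 20. In the 13 other settings each was called in 5. Csf1r lost its call without control mouse 1, 3, 4 or 5, IF mouse 1, 3 or 5, PBMC mouse 1, 2, 3 or 4, or PBMC-hCG mouse 1 or 4. Its adjusted p was highest without IF mouse 3 (0.12), where the log2 fold change was 0.23. Adgre1 lost its call without any 1 control mouse, IF mouse 2, 3 or 5, PBMC mouse 1, 2, 3 or 4, or PBMC-hCG mouse 1, 3 or 4. Its adjusted p was again highest without IF mouse 3 (0.117), where the log2 fold change was 0.19. The direction did not change in any of these fits.

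Ly6c2 was at 28.5, 16.4, 26.9, 21.5 and 12.4 TPM in the control mice and at 21.0, 14.1, 9.70, 12.9 and 12.6 TPM in the IF mice. The groups overlapped, since control mouse 5 was below 4 of the IF mice. The log2 fold change was -0.56 (SE 0.20, adjusted p = 0.0526 in limma). It passed the threshold without control mouse 2 (adjusted p = 0.0333), control mouse 5 (adjusted p = 0.00794) or IF mouse 1 (adjusted p = 0.0127), and in 6 of 13 other settings. Its neighbour Ly6c1 was at 240.7 ± 36.5 TPM (SD, n = 5) in the control and 211.7 ± 31.1 TPM (SD, n = 5) in the IF group.

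Cd68 was at 51.5 ± 3.63 TPM (SD, n = 5) in the control and 58.7 ± 6.61 TPM (SD, n = 5) in the IF group, with a log2 fold change of 0.18 (adjusted p = 0.127). None of the remaining 5 genes passed. The 95% interval of the log2 fold change was -0.24 to 0.37 for the ligand Csf1, -0.43 to 0.51 for Mrc1 and -0.22 to 0.43 for Cx3cr1. It was -0.25 to 0.66 for Cd163 and -0.18 to 0.88 for Itgax. Changes of any size within these intervals remain possible for these genes.

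**Figure D2:**
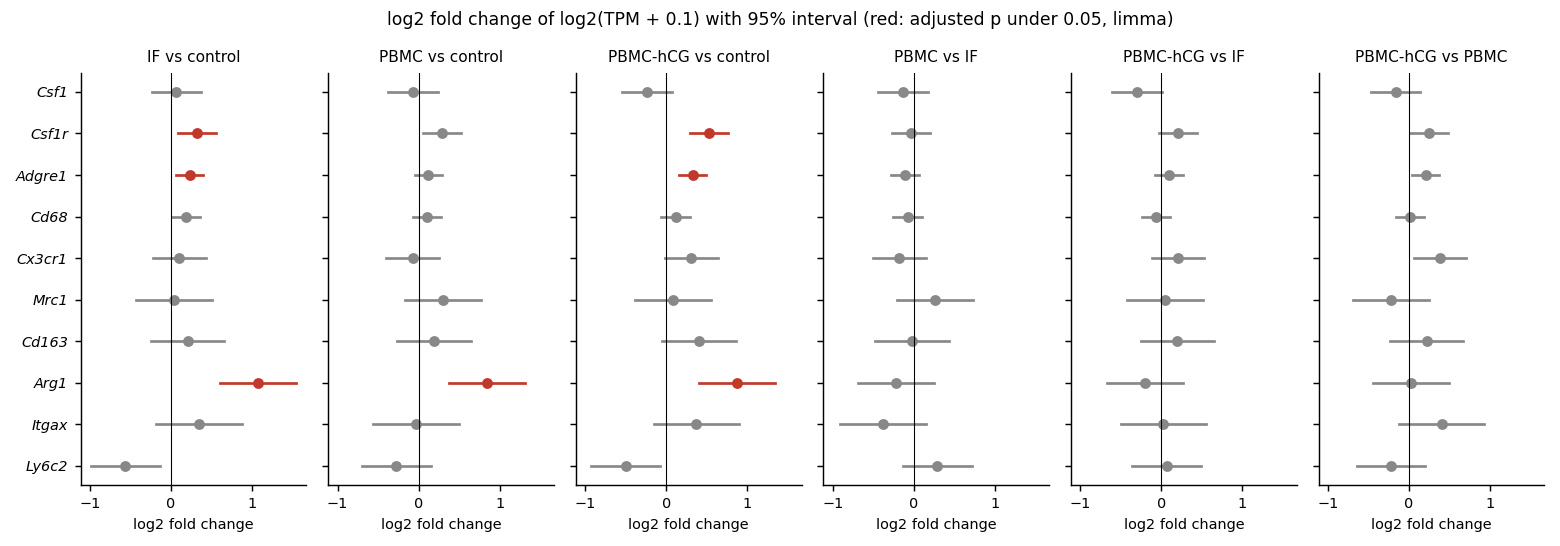
log2 fold change on the scale of log2(TPM + 0.1) (horizontal axes) of each of the 10 genes in the 6 comparisons, with the 95% interval from limma, in red where the adjusted p was under 0.05. Arg1 was called in all 3 comparisons with control mice, and no gene was called in the 3 comparisons among RU486-treated groups.

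In the PBMC-hCG group the same 3 genes were called higher than in the control group, Arg1 by 1.83-fold, Csf1r by 1.44-fold and Adgre1 by 1.25-fold. Here 31.8% of all tested genes passed in either direction and 20.2% passed as higher. The median log2 fold change of the 10 genes was 0.32, beside 0.08 for all tested genes. This comparison and those of the IF and PBMC groups with control mice share the 5 control mice, so their values are not independent of each other.

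Csf1r of the PBMC-hCG mice was at 70.4, 84.7, 58.9, 71.4 and 59.7 TPM. The lowest of these was above the highest control mouse, at 54.4 TPM. The log2 fold change was 0.53 (SE 0.11, adjusted p = 0.00157 in limma), with means of 69.0 ± 10.5 TPM (SD, n = 5) against 47.6 ± 4.51 TPM (SD, n = 5). Adgre1 was at 38.9, 45.8, 39.6, 42.2 and 34.2 TPM, again above every control mouse, with a log2 fold change of 0.32 (SE 0.08, adjusted p = 0.00518). Arg1 was at 2.10, 3.07, 1.74, 1.65 and 2.04 TPM, also above every control mouse, with a log2 fold change of 0.87 (SE 0.22, adjusted p = 0.00655). So 3 of the 10 genes did not overlap between the groups and were higher, as were 13.2% of all tested genes.

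All 3 calls held with each of the 20 mice left out in turn and in 13 of 13 other settings, with adjusted p-values up to 0.0188 for Adgre1, 0.00574 for Csf1r and 0.0228 for Arg1 in the former. Ly6c2 was at 15.6, 12.1, 13.2, 14.4 and 16.3 TPM in the PBMC-hCG mice, with a log2 fold change of -0.50 (SE 0.20, adjusted p = 0.0667). It passed the threshold without control mouse 2 (adjusted p = 0.0394), control mouse 5 (adjusted p = 0.0118) or IF mouse 1 (adjusted p = 0.0437), and in 5 of 13 other settings. Cx3cr1 (log2 fold change 0.31, adjusted p = 0.138) and Cd163 (0.40, adjusted p = 0.168) did not pass.

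**Figure D3:**
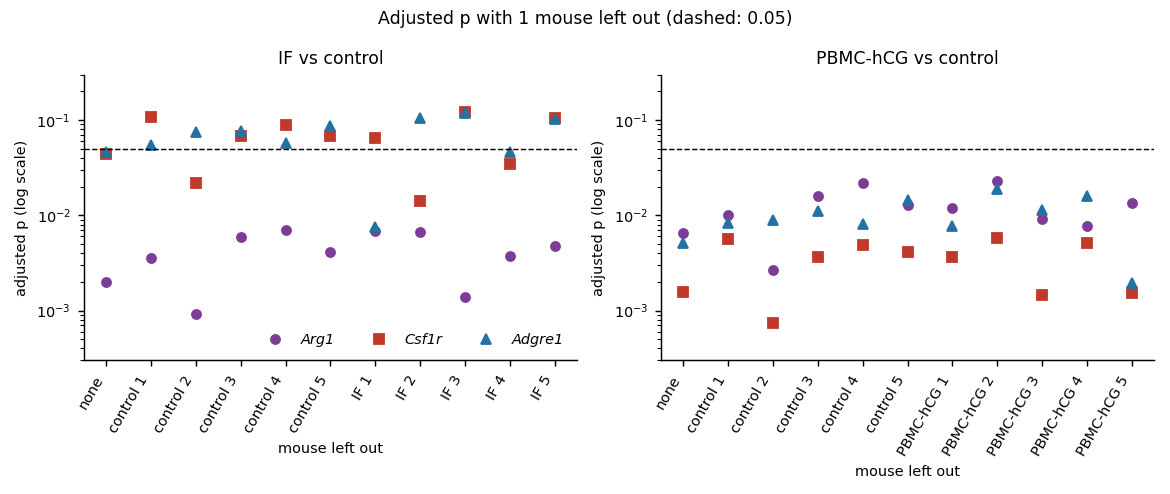
Adjusted p from limma (vertical axes, log scale) of Arg1, Csf1r and Adgre1 with no mouse or 1 mouse of the groups compared left out (horizontal axes), for IF against control (left) and PBMC-hCG against control (right), the dashed line at 0.05. All points of the right panel lie below the line, while on the left Arg1 alone stays below it and Csf1r reaches 0.12 without IF mouse 3.

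Between the PBMC and control groups Arg1 was the only 1 of the 10 genes called, at 1.80-fold higher, while 19.5% of all tested genes passed in either direction and 12.8% as higher. Arg1 was at 1.27, 2.12, 2.49, 2.01 and 2.58 TPM in the PBMC mice. PBMC mouse 1 lay within the control range and the other 4 above it. The log2 fold change was 0.85 (SE 0.22, adjusted p = 0.0114 in limma), and the call held with each of the 20 mice left out.

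Csf1r of the PBMC mice was at 59.7, 57.0, 59.1, 56.7 and 56.3 TPM, a spread of 1.52 TPM (SD, n = 5) beside 4.51 TPM in the control and 11.1 TPM in the IF group. Every PBMC mouse was above every control mouse, as in 8.65% of all tested genes. The log2 fold change was 0.29 (SE 0.11) with an adjusted p of 0.0803 in limma, so Csf1r did not pass, and the exact permutation test of this gene alone gave p = 0.00794, the smallest that 5 against 5 mice allow. It passed in limma without control mouse 2 (adjusted p = 0.0399) or IF mouse 3 (adjusted p = 0.0446). Adgre1 was at 33.3, 36.5, 34.2, 35.4 and 34.3 TPM, with a log2 fold change of 0.12 (adjusted p = 0.323), while its exact permutation test alone gave p = 0.0238.

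Among the groups that all received RU486, no difference in the 10 genes passed limma's test. Between PBMC and IF mice 0 of the 10 genes passed, 0 had an unadjusted p under 0.05, and 0% and 6.79% of all tested genes did so. Between PBMC-hCG and IF mice 0 of the 10 passed and 0 had an unadjusted p under 0.05, while 13.6% and 35% of all tested genes did so in either direction. The exact permutation test gave no p under 0.05 for any of the 10 genes in these comparisons. These comparisons ask whether the donor cells moved expression away from that of the IF group.

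For the genes called against control mice, the differences between PBMC-hCG and IF mice were small beside their intervals. The log2 fold change was -0.20 for Arg1 (95% interval -0.67 to 0.27), 0.21 for Csf1r (-0.03 to 0.44) and 0.09 for Adgre1 (-0.08 to 0.26). The interval of Arg1 does not reach -1.07, the reverse of its difference between IF and control mice. That difference had a 95% interval of 0.60 to 1.54, so the intervals overlap in size. Both comparisons share the IF mice. Csf1 was at 18.9, 20.8, 15.8, 25.3 and 25.9 TPM in the IF mice and at 20.1, 19.1, 17.4, 14.4 and 14.7 TPM in the PBMC-hCG mice. These ranges overlapped, and the log2 fold change was -0.30 (SE 0.15, unadjusted p = 0.0523, adjusted p = 0.146). Without IF mouse 3, Csf1 (log2 fold change -0.40, adjusted p = 0.0426) and Csf1r (0.29, adjusted p = 0.0432) passed.

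Between PBMC-hCG and PBMC mice 0 of the 10 genes passed in limma, and 0.0107% of all tested genes did. The unadjusted p was under 0.05 for 3 of the 10, all higher with hCG, and for 16.2% of all tested genes. Cx3cr1 was at 15.6, 13.5, 14.6, 14.1 and 8.58 TPM in the PBMC mice and at 16.4, 23.4, 14.04, 15.2 and 17.4 TPM in the PBMC-hCG mice. Its log2 fold change was 0.38 (95% interval 0.06 to 0.71, adjusted p = 0.284), with the extreme values in 1 mouse of each group. Csf1r (log2 fold change 0.24, adjusted p = 0.298) and Adgre1 (0.20, adjusted p = 0.283) were the others, and the exact permutation tests of these genes alone gave p = 0.0397 and p = 0.0317.

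In the order of the group means on the log2 scale, neighbouring groups seldom differed in limma's test. Csf1r, Adgre1 and Cd163 were ordered PBMC-hCG, IF, PBMC, control from the highest to the lowest, and Arg1 was ordered IF, PBMC-hCG, PBMC, control. Cd68 had the order of Arg1 and Ly6c2 the reverse of it. Itgax and Cx3cr1 were ordered PBMC-hCG, IF, control, PBMC, while Mrc1 was highest in PBMC and Csf1 lowest in PBMC-hCG mice. Of the 30 pairs of neighbours in these orders over the 10 genes, 1 differed at an adjusted p under 0.05, that of Arg1 between PBMC and control.

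The 10 genes did not move together from mouse to mouse. After each group's mean was subtracted from the log2 values, the median Pearson correlation of the 45 pairs over the 20 mice was -0.004, and 22 pairs were above 0. Pairs above 0.5 were Csf1r with Cd68 (r = 0.61, rho = 0.60), Adgre1 with Cd68 (r = 0.60, rho = 0.38) and Mrc1 with Ly6c2 (r = 0.50, rho = 0.58). Below -0.5 were Csf1 with Itgax (r = -0.68, rho = -0.64) and Mrc1 with Itgax (r = -0.63, rho = -0.55). These are descriptions, given with no p, and values of a library share the fixed total of the TPM scale. Without the 2 mice farthest from the median, r was 0.38 for Adgre1 with Cd68, 0.41 for Mrc1 with Ly6c2 and -0.39 for Mrc1 with Itgax, so these 3 rest in part on those mice. It was 0.51 for Csf1r with Cd68 and -0.52 for Csf1 with Itgax.

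**Figure D4:**
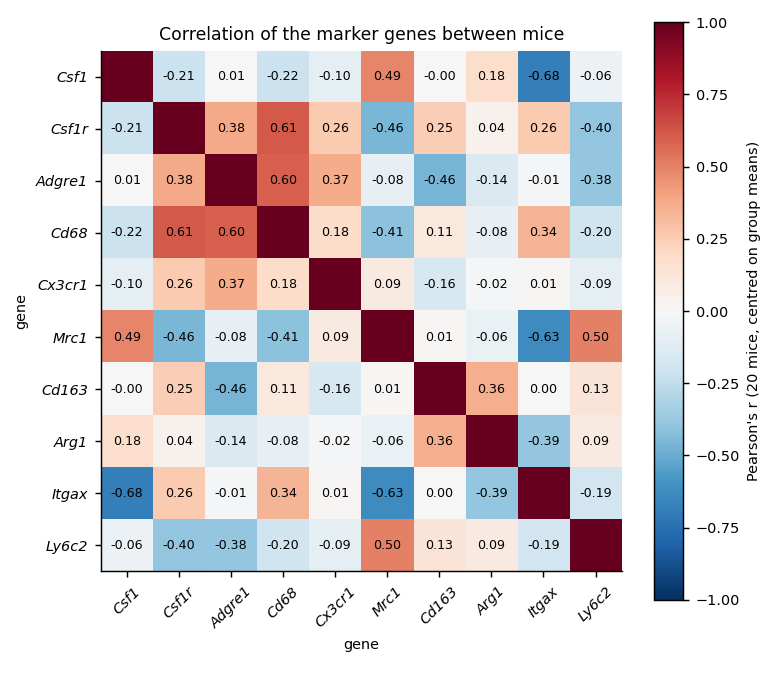
Pearson's r between each pair of the 10 genes over 20 mice (colour and printed value, from -1 in blue to 1 in red), with genes on both axes and log2(TPM + 0.1) centred on group means. Blocks of red join Csf1r, Adgre1 and Cd68, while Itgax is blue with Csf1 and Mrc1.

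Itgax and Mrc1 set 3 mice apart. Itgax was at 8.94, 15.9, 7.91, 9.43 and 9.09 TPM in the control mice, where Mrc1 was at 44.8, 15.5, 39.7, 43.1 and 35.3 TPM. Control mouse 2 had the highest Itgax and the lowest Mrc1 of its group. In the IF mice Itgax was at 12.4, 11.7, 20.3, 9.17 and 12.1 TPM and Mrc1 at 41.0, 37.5, 25.4, 41.4 and 29.9 TPM, and IF mouse 3 held both extremes. In the PBMC-hCG mice Itgax was at 14.3, 7.53, 12.7, 19.5 and 13.3 TPM and Mrc1 at 42.8, 39.9, 32.2, 27.1 and 37.2 TPM, and mouse 4 held both. Itgax was 103% of Mrc1 in control mouse 2, 80.0% in IF mouse 3 and 72.0% in PBMC-hCG mouse 4, and between 17.0% and 40.4% in the other 17 mice. In the PBMC group Itgax lay between 6.40 and 12.9 TPM and Mrc1 between 37.6 and 44.3 TPM, with no such mouse.

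**Figure D5:**
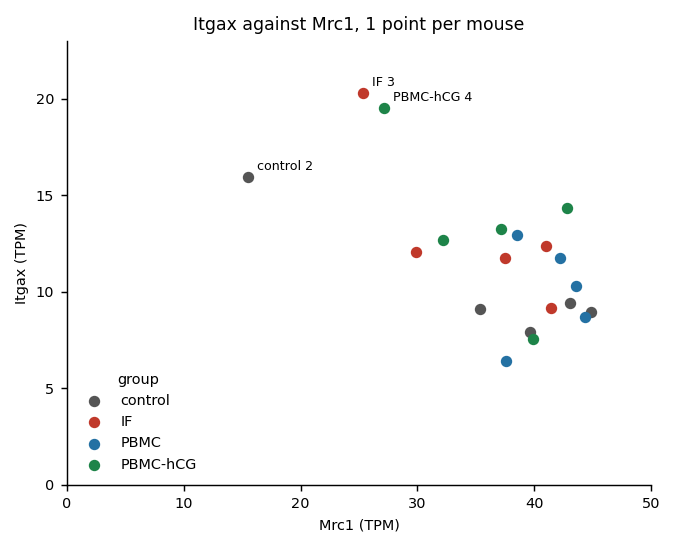
Itgax (vertical axis, TPM) against Mrc1 (horizontal axis, TPM), 1 point per mouse, coloured by group. Control mouse 2, IF mouse 3 and PBMC-hCG mouse 4 lie apart at Mrc1 of 15.5 to 27.1 TPM and Itgax of 15.9 to 20.3 TPM.

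The genes most like each marker across the 20 mice, after subtraction of group means and among 15771 genes with a mean of at least 1 TPM, differed from marker to marker. Csf1r was most like Cd33 (r = 0.89) and Lyz2 (r = 0.89), both genes of myeloid cells, Lyz2 being lysozyme, and next Clip1 (r = 0.83). Adgre1 was most like Gm2058 (r = 0.84) and Lgals9 (r = 0.79), and Cd68 like Smpdl3b (r = 0.84). Without the subtraction, r was 0.42 for Csf1r with Cd33 and -0.15 for Cd68 with Smpdl3b. It was 0.80 for Csf1r with Lyz2, 0.81 for Csf1r with Clip1, 0.88 for Adgre1 with Gm2058 and 0.79 for Adgre1 with Lgals9. Csf1 was most like Swi5 (r = 0.94), Nudc (r = 0.93) and Ahsa1 (r = 0.92). Mrc1 was most like Kcnd3 (r = 0.97), Adam12 (r = 0.96) and Tspan3 (r = 0.95), the highest values of any marker on this measure. Without the 2 mice farthest from the median of Mrc1, r was 0.92, 0.88 and 0.86. Without the subtraction r was 0.84, 0.84 and 0.70, below the values of Itgax with its likest genes (0.90 to 0.93).

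Itgax was most like the NK receptor pseudogene Klra13-ps (r = 0.94), Ctsw (r = 0.92), the cathepsin of NK and cytotoxic T cells, and Tbc1d10c (r = 0.91). Cd163 was most like Fcer1a (r = 0.84), which encodes a chain of the IgE receptor. Cx3cr1 was most like Mgme1 (r = 0.77) and Ly6c2 like Rgs6 (r = 0.87). Arg1 had the weakest match, Nfkb2 (r = 0.72), an NF-kB subunit. Each is the highest among all genes compared and is given with no p.

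Other genes of the same pathways were read from lists, whose counts are to be read beside the shares over all tested genes. In either direction 21.9% were called in IF, 19.5% in PBMC and 31.8% in PBMC-hCG against control mice, and 13.6% in PBMC-hCG against IF mice. Of the ligands and receptors of the CSF family, 6 of 7 were tested and 0 of 6 passed limma's test in IF against control or PBMC-hCG against control, with 1 of 6 at an unadjusted p under 0.05 in each. Il34, the other ligand of CSF1R, was at 4.13 TPM in control and 3.31 TPM in IF mice (log2 fold change -0.33, adjusted p = 0.236). Csf2 was above 0 in 10 of 20 libraries and was not tested.

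Of 22 other core macrophage genes, 3 were called higher and 1 lower in IF than in control mice. Of all tested genes 21.9% were called there in either direction and 13.4% as higher. Among the rises were Laptm5 (log2 fold change 0.32, adjusted p = 0.0106) and the Fc receptor Fcgr3 (0.27, adjusted p = 0.0321). Mertk, a receptor for the uptake of dying cells, was lower (-0.72, adjusted p = 0.00566). Between PBMC-hCG and control mice 9 of 22 were higher and 0 lower, led by Mpeg1 (0.52, adjusted p = 0.00139), beside 20.2% of all tested genes called higher. Between PBMC-hCG and IF mice 1 was called, Mertk, as higher (0.53, adjusted p = 0.048), beside 13.6% of all tested genes in either direction. The median log2 fold change of the 22 genes was 0.08 in IF and 0.17 in PBMC-hCG against control mice, beside 0.02 and 0.08 for all tested genes. The complement gene C1qa did not pass, at 212.0 TPM in control and 212.1 TPM in IF mice (adjusted p = 0.998).

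Of 12 genes of tissue-resident macrophages, Lyve1 (log2 fold change 0.60, adjusted p = 0.000426) and Stab1 (0.50, adjusted p = 0.000438) were higher and Cd36 was lower in IF than in control mice. Lyve1 and Stab1 are hyaluronan and scavenger receptors that lymphatic or sinusoidal endothelium also expresses, and Cd36 is a fatty acid receptor of many cell types. Cd36 fell from 33.4 ± 12.5 TPM (SD, n = 5) to 4.17 ± 0.679 TPM (SD, n = 5), a log2 fold change of -2.90, with no overlap. The other 9 did not pass.

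Around Arg1, the rest of arginine metabolism moved the other way or did not pass. Of 5 tested genes 0 were higher and 2 lower in IF than in control mice. Argininosuccinate lyase (Asl), which makes arginine, was at a mean of 58.1 TPM in IF against 125.8 TPM in control mice, with no overlap and a log2 fold change of -1.13 (SE 0.15, adjusted p = 2.38e-05). The mitochondrial arginase Arg2 was at 12.8 TPM against 19.1 TPM, a log2 fold change of -0.55 (adjusted p = 0.0286). In PBMC-hCG against control mice Asl, Arg2 and the ornithine decarboxylase Odc1 were lower, and against IF mice the arginine transporter Slc7a2 was higher (log2 fold change 0.54, adjusted p = 0.0407). Arg2 was thus more abundant than Arg1 in every group mean, per transcript length.

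Of 10 genes of alternative activation, 5 could be tested. Il4ra, a subunit of the receptor for IL-4 and IL-13, rose from 51.5 ± 5.07 TPM (SD, n = 5) in control to 158.1 ± 47.7 TPM (SD, n = 5) in IF mice and was 80.4 ± 24.3 TPM (SD, n = 5) in PBMC-hCG mice. Its log2 fold change was 1.57 for IF against control and -0.98 for PBMC-hCG against IF (adjusted p = 0.0258). Il4ra was still higher in PBMC-hCG than in control mice (0.60, adjusted p = 0.0367). The transglutaminase Tgm2 was higher in IF mice (0.32, adjusted p = 0.0438) and lower in PBMC-hCG than in IF mice (-0.40, adjusted p = 0.0344). Many cells of the uterus express these genes besides macrophages. Of 11 genes of classical activation 8 were tested. Cd80 was higher in IF (0.72, adjusted p = 0.0119) and in PBMC (0.73, adjusted p = 0.0116) than in control mice. Ptgs2 was lower in PBMC-hCG than in IF mice (-1.87, adjusted p = 0.0385). Cxcl10 was higher in PBMC-hCG than in control mice (1.23, adjusted p = 0.031).

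Of 12 chemokines that attract monocytes and other leukocytes, Cxcl14 (log2 fold change 1.002, adjusted p = 0.0114) and Cxcl12 (0.56, adjusted p = 0.00879) were higher and Cx3cl1 (-0.47, adjusted p = 0.0349) lower in IF than in control mice. Cx3cl1 is the ligand of CX3CR1, whose own gene did not pass. In PBMC-hCG mice Ccl7 and Cxcl14 were lower than in IF mice (-1.80, adjusted p = 0.0499 and -0.91, adjusted p = 0.0383). Between PBMC-hCG and control mice 1 of the 12 was higher and 4 were lower. The rise was that of Cxcl12 (0.89, adjusted p = 0.000149), with no overlap between the groups. The falls with the largest changes were those of Ccl7 (-1.81, adjusted p = 0.0259), Ccl12 (-1.31, adjusted p = 0.0136) and Ccl2 (-1.19, adjusted p = 0.0177), each with overlapping groups. All 3 are ligands of CCR2, and Ccr2 did not pass (0.30, adjusted p = 0.136).

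Of 12 monocyte genes, 4 were higher and 1 lower in IF than in control mice, with Fn1 (log2 fold change 0.98, adjusted p = 0.00162) and Nr4a1 (1.86, adjusted p = 0.0447) higher and Ly6a lower (-0.52, adjusted p = 0.0293). Fn1 and Ly6a are also made by stroma and endothelium, and Nr4a1 is an immediate early gene of many cells. Of 8 Ly6 family genes 4 were tested and Ly6a alone passed. Of 17 genes of dendritic cells and MHC class II, Irf8 (0.35, adjusted p = 0.00469), Irf4 (0.83, adjusted p = 0.012) and Zbtb46 (0.23, adjusted p = 0.0491) were higher in IF than in control mice and 0 were lower.

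Markers of some other cells moved with the groups. Of mast cell, eosinophil and platelet markers 0 were called in IF or PBMC-hCG against control mice. Of T cell markers 0 of 6 were called in the former and 1 of 6 in the latter. Stromal markers were called in both directions, 2 of 6 higher and 1 lower in each comparison. All 6 endothelial markers were called higher in IF and in PBMC-hCG than in control mice, with sums of 329.0 to 449.9 TPM in control, 508.5 to 550.1 TPM in IF and 552.3 to 628.5 TPM in PBMC-hCG mice. Smooth muscle markers were lower, 2 of 6 in IF and 5 of 6 in PBMC-hCG mice, with sums of 3474 to 7633 TPM in control, 3542 to 4926 TPM in IF and 3123 to 3974 TPM in PBMC-hCG mice. Epithelial markers were higher, 4 of 6 and 5 of 6, with sums of 514.2 to 907.2 TPM in control, 776.3 to 993.5 TPM in IF and 908.5 to 1198 TPM in PBMC-hCG mice. Of 3 leukocyte markers 1 was higher in IF and 3 in PBMC-hCG mice, and Ptprc (CD45) was higher in both IF (log2 fold change 0.39, adjusted p = 0.0294) and PBMC-hCG mice (0.47, adjusted p = 0.00757). The leukocyte markers summed to 207.1 to 251.3 TPM in control, 228.9 to 316.4 TPM in IF and 234.0 to 358.6 TPM in PBMC-hCG mice. None of these markers was at 0 in all libraries, and their part in the differences of Arg1, Csf1r and Adgre1 was not tested. The sums of 8 macrophage markers, Adgre1, Csf1r and Cd68 among them, overlapped between the groups. They were 692.8 to 831.4 TPM in control, 743.2 to 825.9 TPM in IF and 780.2 to 1037 TPM in PBMC-hCG mice.

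Control mouse 2 stood apart, with stromal markers at 4138 TPM against 7205 to 7644 TPM in the other control mice and adipose markers at 341.7 TPM against 0 to 23.5 TPM. The 8 macrophage markers summed to 692.8 TPM in it and to 702.1 to 831.4 TPM in the other control mice. The 22 other core macrophage genes went the other way, with 2078 TPM in it and 1756 to 2003 TPM in the other control mice. Its Csf1r (54.4 TPM) and Cd68 (54.8 TPM) were also the highest of the control mice. Without it Arg1 stayed called in IF, PBMC and PBMC-hCG against control mice, and Csf1r and Adgre1 stayed called in PBMC-hCG against control mice. No sequencing batch or date is given in the sources used here, so no within-batch values are given.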

How the data were processed

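Uterine RNA of 20 mice in 4 groups of 5 was analysed, with groups and replicate numbers taken from the sample labels. The values are TPM as deposited by the authors, who per the labels and the study's methods prepared stranded mRNA libraries, trimmed reads with Trimmomatic, aligned them to mm10 with HISAT2 and quantified transcripts with StringTie. TPM keeps no depth, so no count test was run.

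Values were transformed to log2(TPM + 0.1), which understates changes of low genes such as Arg1 and Cd163. The 18706 genes above 0 TPM in all 20 libraries, the study's filter, were fitted with limma 3.58.1 (R 4.3.3) with a variance trend, all 4 groups in a shared fit. Within each of 6 comparisons, Benjamini-Hochberg adjustment ran over all tested genes. A gene was called at an adjusted p under 0.05. The study's criterion, a fold change of at least 2 with an unadjusted p under 0.05, was counted beside it. Each of the 10 genes was also put through a two-sided exact permutation test (252 arrangements of 5 against 5 mice, smallest p 0.00794, no adjustment).

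The markers and gene lists were chosen with earlier results of these data known. Of other genes, at most 3 rises and 3 falls with the largest changes per list and comparison and a mean of at least 1 TPM were named, and Il34, C1qa, Ccr2 and Ptprc were added after their values were seen. A gene that this rule names is not reported here. Likeness was measured on values centred on group means.

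On simulated data for IF against control over 18706 genes, the fit recovered 89 of 100 genes changed by 1 and 95 of 100 changed by 2 on the log2 scale, with 5 false calls. Smaller changes, such as those of Csf1r and Adgre1, were not simulated. Coding sequences and gene positions were those of GRCm38. Alternatives were other pseudocounts, filters, scalings, variance models, weights, a replicate block and each mouse left out.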

Additional observations from a re-analysis of the deposited data

Results flagged for a closer look

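In each of the 40 sets of 5 values (10 genes in 4 groups), the highest and lowest mouse were compared with the rest by Dixon's test, which flags about 1 in 20 sets by chance, and 3 sets were flagged. Itgax stood out as high in control mouse 2, at 15.9 TPM with the next mouse at 9.43 TPM. Itgax was likewise high in IF mouse 3, at 20.3 TPM with the next at 12.4 TPM. Cd163 was low in PBMC mouse 1, at 0.815 TPM with the next at 1.21 TPM.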

How the results depend on the processing

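The number of the 10 genes called in IF against control mice fell from 3 to 1 with no filter, with only the groups compared in the fit, with no variance trend, and with control mouse 2 and IF mouse 3 left out together, an alternative chosen after seeing the data. It was 1 to 3 with 1 mouse left out, being 1 without control mouse 1, 3 or 4, IF mouse 3 or 5, PBMC mouse 1, 2, 3 or 4, or PBMC-hCG mouse 1 or 4. Ly6c2 was called as lower beside Arg1, Csf1r and Adgre1 with a mean of at least 1 TPM (adjusted p = 0.0465) and with median centring (adjusted p = 0.0474). With quantile normalization, TMM factors or array weights Ly6c2 was called and Csf1r and Adgre1 were not. In PBMC against control mice the number rose from 1 to 2 with only the groups compared and with both mice left out, to 3 with array weights, and was 1 to 2 with 1 mouse left out, being 2 without control mouse 2 or IF mouse 3. In PBMC-hCG against IF mice it rose from 0 to 2 with array weights and with both mice left out, and was 0 to 2 with 1 mouse left out, being 2 without IF mouse 3. It was 3 to 4 in PBMC-hCG against control mice and 0 in the remaining 2 comparisons in all limma settings. The cause was not tested.

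Signs turned only for differences near 0 that were not called. With quantile normalization the log2 fold change became -0.012 for Mrc1 in IF against control, -0.034 for Itgax in PBMC-hCG against IF and -0.038 for Arg1 in PBMC-hCG against PBMC mice. With TMM factors it became -0.013 for Itgax in PBMC-hCG against IF and -0.0079 for Cd68 in PBMC-hCG against PBMC mice. With median centring it became -0.039 for Itgax and -0.022 for Mrc1 in PBMC-hCG against IF, and -0.0096 for Arg1 and -0.021 for Cd68 in PBMC-hCG against PBMC mice. With array weights it became -0.118 for Mrc1 in IF against control, 0.095 for Csf1r and 0.037 for Cd163 in PBMC against IF, -0.092 for Mrc1 and -0.058 for Ly6c2 in PBMC-hCG against IF, -0.017 for Cd68 in PBMC-hCG against PBMC, 0.017 for Cx3cr1 and 0.22 for Itgax in PBMC against control, and -0.21 for Mrc1 in PBMC-hCG against control mice. With both mice left out it became -0.127 for Mrc1 in IF against control, 0.051 for Csf1r in PBMC against IF, -0.070 for Mrc1 and -0.056 for Ly6c2 in PBMC-hCG against IF, 0.138 for Itgax in PBMC against control and -0.197 for Mrc1 in PBMC-hCG against control mice.

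With 1 mouse left out, the ranges that crossed 0 were -0.019 to 0.167 for Csf1 and -0.237 to 0.150 for Mrc1 in IF against control, -0.155 to 0.016 for Csf1, -0.139 to 0.075 for Cx3cr1 and -0.133 to 0.138 for Itgax in PBMC against control, and -0.197 to 0.186 for Mrc1 in PBMC-hCG against control mice. They were -0.116 to 0.051 for Csf1r and -0.151 to 0.095 for Cd163 in PBMC against IF, and -0.126 to 0.215 for Itgax, -0.070 to 0.135 for Mrc1 and -0.056 to 0.221 for Ly6c2 in PBMC-hCG against IF mice. In PBMC-hCG against PBMC mice they were -0.138 to 0.103 for Arg1 and -0.052 to 0.060 for Cd68.

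Mice with the same replicate number did not deviate together throughout, with correlations of -0.247 to 0.457 over all tested genes. The highest were those of replicate 5, between IF and control (0.396), PBMC and IF (0.457) and PBMC and control mice (0.272). Those of replicate 5 with PBMC-hCG mice were negative. The numbers were not used as pairs in the main fit. With the replicate block 2 of the 10 genes were called in IF against control mice, Arg1 and Ly6c2 (adjusted p = 0.0404), while Csf1r (adjusted p = 0.071) and Adgre1 (adjusted p = 0.0509) were not. The calls over all genes went from 4104 to 4153 in that comparison. They went from 2544 to 3215 in PBMC-hCG against IF mice.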

Other observations

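In control mice the B and plasma cell markers summed to 79.5 to 252.4 TPM and in PBMC-hCG mice to 15.5 to 42.7 TPM. Jchain was the most abundant of the 4 tested, with means of 159.4 and 20.3 TPM. Jchain and Mzb1 were called lower (adjusted p = 0.00717 and 0.0301 in limma). Cd79a (log2 fold change -0.73, adjusted p = 0.226) and Cd79b (0.19, adjusted p = 0.5) were not called. The NK cell markers summed to 60.8 to 86.5 TPM in control and 95.8 to 123.9 TPM in PBMC-hCG mice. Neutrophil markers ranged from 58.1 to 357.8 TPM among the PBMC-hCG mice alone.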
